A study of Mus musculus with 2 samples.

Results

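Mir143 and Mir145a are a pair of microRNA (miRNA) hairpin genes that lie next to each other on 1 strand of mouse chromosome 18. They were taken by their gene identifiers, with no threshold on counts, as 2 of the 1973 miRNA genes in each count file. The tissue was embryonic limb of strain B6NCrl mice at day 11.5, in 2 libraries of 1 group. Replicate 1 was pooled from 109 embryos and replicate 2 from 88, of both sexes and healthy, and the labels name no treatment and no genetic change. The labels give both libraries 1 donor identifier and do not explain it, so the spread given here is that of these libraries and may be technical, and there is no contrast between conditions. Whole limb was pooled, so fewer cells of a type and less RNA per cell cannot be told apart.

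A miRNA gene is transcribed as part of a longer primary transcript, from which the enzymes Drosha and Dicer cut a hairpin and then a short duplex. One strand of that duplex guides Argonaute proteins to matching messenger RNAs and represses them. Mir143 and Mir145a are known as smooth muscle miRNAs: serum response factor and its coactivator myocardin drive the locus. The miRNAs made from it favour the contractile state of vascular smooth muscle over the proliferative one, in part through repression of Klf4 and Elk1. The locus is also active in the early heart and in some fibroblasts.

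On assembly mm10, Mir143 (ENSMUSG00000065445.2 in the files) lies on chromosome 18 from 61649196 to 61649258 on the minus strand. Mir145a (ENSMUSG00000065592.1) lies from 61647825 to 61647894 on the same strand, so Mir143 is the upstream hairpin, and 1301 bases separate them. The annotations differ about what encloses the hairpins. In RefSeq (GRCm38.p6), the long noncoding RNA gene Carmn, also named Mir143hg, runs from 61645878 to 61665538 and holds both hairpins. In GENCODE M21, Carmn ends 366 bases before Mir143 begins, and 0 other genes overlap the span of 1434 bases from the start of Mir145a to the end of Mir143. Bvht, a noncoding gene known from cardiac commitment, lies on the opposite strand and ends 352 bases short of Mir145a. In that annotation neither hairpin is overlapped by a gene on the other strand, and the opposite-strand column held 1 count at Mir143 in replicate 2 and 0 elsewhere at both genes.

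**Figure D1:**
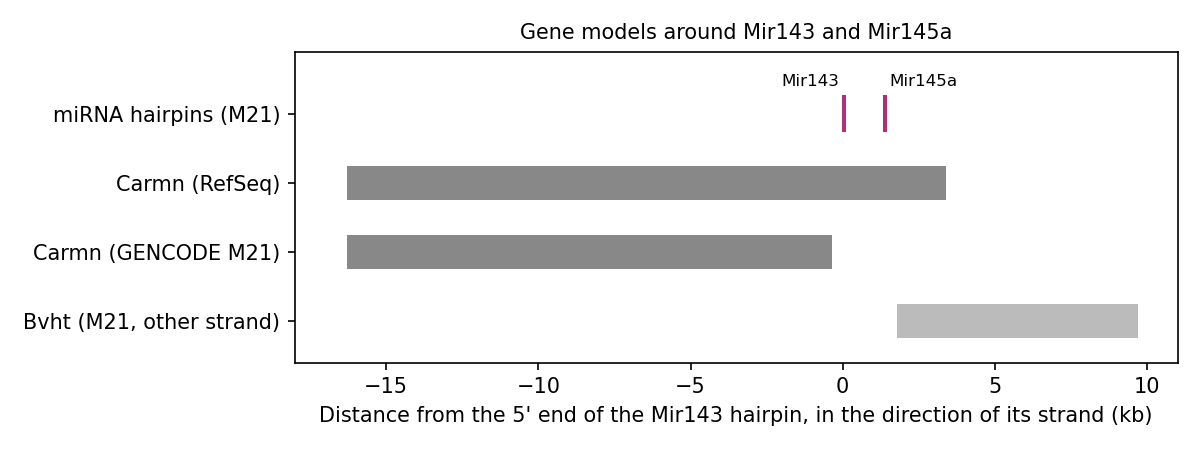
Gene models around the pair, drawn by distance in kb from the 5′ end of the Mir143 hairpin along its strand, with 1 row per annotation. The RefSeq model of Carmn spans both hairpins, whereas the GENCODE M21 model stops 366 bases before Mir143, and Bvht lies on the other strand beyond Mir145a.

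The hairpins differ in sequence as well as in count. Mir143 is 63 nt long with a GC content of 55.6%, and Mir145a is 70 nt long with 48.6%. Their longest shared stretch is 5 nt, so a read of 1 cannot be taken for the other. No stretch of 18 nt of either hairpin occurs in any other GENCODE M21 transcript, on either strand, so an exact read of that length or more from a member matches no other annotated transcript. At 16 nt, Mir143 shares a stretch with 10 other genes and Mir145a with 9, among them Mir145b. The genome outside transcripts was not searched. Detection meant 10 CPM in each library, where CPM is the sense count of a gene scaled to a library total of 1000000 sense miRNA counts. A minimum free energy fold put Mir143 at −36.9 kcal/mol with 50 of its bases paired, and Mir145a at −30.3 kcal/mol with 48 paired. Per nucleotide these are −0.586 and −0.433 kcal/mol, against a median of −0.434 over the 295 detected hairpins. Mir143 was thus among the more stable predicted folds, with 17 of the 295 lower per nucleotide, and Mir145a stood near the middle, with 154 lower.

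By counts in these limb libraries, Mir143 was an abundant miRNA and Mir145a a minor one. Mir143 had 15739 sense counts in replicate 1 and 21239 in replicate 2, of totals of 2953085 and 3459176. As levels these are 5330 CPM (Wilson 95% interval 5247 to 5413) and 6140 CPM (6058 to 6223), or 0.533% and 0.614% of all miRNA counts. The mean was 5735 ± 573 CPM (SD, n = 2). Mir143 ranked 38 in replicate 1, 35 in replicate 2 and 37 by the mean of both, far above the median of detected genes, 262.3 CPM. The higher value was that of replicate 2, and the 2 counting intervals did not overlap.

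Mir145a had 313 counts in replicate 1 and 417 in replicate 2. Its level was 106.0 CPM (Wilson 95% interval 94.9 to 118) and 120.5 CPM (109.5 to 133), with a mean of 113 ± 10.3 CPM (SD, n = 2). It ranked 195 and 186 in the libraries and 192 by the mean, below the median of detected genes. Here too replicate 2 was higher, but the counting intervals overlapped. Both genes were well clear of the floor that a count of 0 allows, 1.02 CPM in replicate 1 and 0.867 CPM in replicate 2. These intervals and floors cover counting error only, since PCR copies are not independent molecules.

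Mir145b, a separate hairpin on the same chromosome from 69022199 to 69022273, had 0 counts in both libraries, which allows up to 1.02 and 0.867 CPM. Its longest stretch shared with Mir145a is 17 nt, and the aligned hairpins are identical at 45 of 82 positions. Counts cannot separate the 5′ and 3′ arms of either member, because the files count whole hairpins.

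In the order of levels, the genes next to Mir143 were Mir149 at 6097 ± 111 CPM, Mir1983 at 6041 ± 46.0 CPM and Mir411 at 5921 ± 257 CPM above it (SD, n = 2 for each). Below it came Mir151 at 5536 ± 30.3 CPM, Mir205, an epithelial miRNA, at 5522 ± 566 CPM and Mir487b at 5414 ± 282 CPM. Each of the 6 had a range over the libraries that overlapped that of Mir143. Compared within each library, Mir149 was above Mir143 in both, and Mir205 and Mir487b were below it in both. Mir1983, Mir411 and Mir151 were above Mir143 in replicate 1 and below it in replicate 2, so its exact place among the 6 is not resolved. Over the levels of both libraries as log2(CPM + 1), Mir205 was the nearest gene to Mir143, at a Euclidean distance of 0.08. The next were Mir411 at 0.11, Mir487b at 0.13, Mir151 at 0.15 and Mir1983 at 0.17. With 2 libraries this likeness is mainly one of level.

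Around Mir145a, the genes next above were Mirlet7f-2 at 113 ± 15.8 CPM, Mir325 at 115 ± 17.4 CPM and Mir673 at 116 ± 14.0 CPM. Mir496a at 113 ± 7.70 CPM, Mir30b at 112 ± 1.42 CPM and Mir190a at 110.4 ± 8.13 CPM came next below. All 6 overlapped Mir145a in range. The nearest by the same distance were Mir496a at 0.03, Mir673 at 0.06, Mir103-2 at 0.09, Mir325 at 0.09 and Mir30b at 0.11. Of the genes named beside the members, Mir411, Mir487b, Mirlet7f-2, Mir103-2 and Mir190a share a 20-nt stretch with another miRNA gene, so their own counts can be too low.

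The counts of the hairpins within the pair were very unequal. Mir143 had 50.3 times the counts of Mir145a in replicate 1 (exact 95% interval 45.0 to 56.4) and 50.9 times in replicate 2 (46.2 to 56.3). On the log2 scale the ratio was 5.65 and 5.67. Mir145a thus made up 1.95% and 1.93% of the counts of the pair. Divided by hairpin length, as counts per base, the log2 ratio was 5.80 in replicate 1 and 5.82 in replicate 2, a little wider because Mir145a is the longer hairpin. The ratio needs no scaling between libraries. It differed by 0.02 on the log2 scale, with a 95% interval of −0.20 to 0.23 from counting error. The ratio therefore did not differ detectably between libraries (two-sided Fisher's exact test, p = 0.880, Benjamini-Hochberg adjusted p = 0.986 over 102 pairs), and a shift beyond that interval would have been outside counting error. Of those 102 pairs of neighbouring hairpins, 16.7% passed the same test at 0.05. Sequence-dependent bias in ligation and amplification that both libraries share would not show in this comparison, and its part in the ratio was not tested.

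The 102 pairs are those listed hairpins that follow each other on 1 strand within 10 kb, with 10 or more counts each over both libraries. They served to show how unequal the counts of such neighbours were in these libraries. The absolute log2 ratio of Mir143 to Mir145a ranked 20, with 82 pairs more equal and 19 less equal. The median over all pairs was 2.65, the lower quartile 1.44 and the upper quartile 4.81, and 22 pairs exceeded 5. So a difference of this size was in the upper range of these pairs but not rare among them. The pairs are not independent, because a hairpin within a cluster can belong to more than 1 pair. Mir20a, for example, is in the pairs ranked 3 and 5. The upstream hairpin was the higher one in 52 pairs and the downstream one in 50, and Mir143 with Mir145a belongs to the first kind. The order of the hairpins was the same in both libraries for 100 of the 102 pairs.

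**Figure D2:**
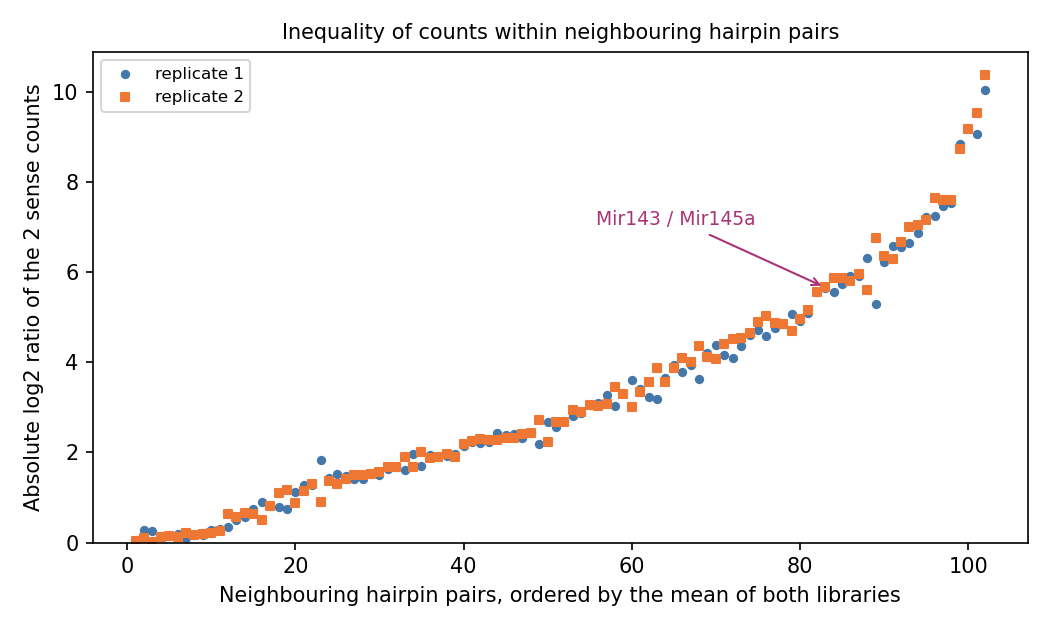
Absolute log2 ratio of the sense counts within each of 102 neighbouring hairpin pairs, ordered along the x axis by the mean of both libraries, with circles for replicate 1 and squares for replicate 2. Mir143 with Mir145a lies above the upper quartile of 4.81, and its points for the libraries, 5.65 and 5.67, nearly coincide.

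The pairs just above it in inequality were Mir487b with Mir539, at an absolute log2 ratio of 5.71 ± 0.22 (SD, n = 2, as for the ratios that follow), Mirlet7a-1 with Mirlet7d at 5.80 ± 0.10, and Mir1197 with Mir323 at 5.85 ± 0.07. Just below were Mir23a with Mir27a at 5.55 ± 0.00, Mir181a-1 with Mir181b-1 at 5.12 ± 0.04, and Mir134 with Mir668 at 4.94 ± 0.04. The SD of the Mir23a and Mir27a ratio, 0.000538, lies far under its counting errors of 0.06 in each library. The widest pair was Mir544 with Mir382, both of the Dlk1-Dio3 cluster, at 10.21 ± 0.23, of which Mir544 had 7 counts in each library. It was followed by Mir99a with Mirlet7c-1 at 9.30 ± 0.34, Mir20a with Mir19b-1 at 9.19 ± 0.01, Mir411 with Mir1197 at 8.78 ± 0.08, and Mir19a with Mir20a at 7.56 ± 0.06. Of the 19 pairs less equal than Mir143 with Mir145a, 12 hold a hairpin that shares 20 nt with another miRNA gene. Such a hairpin can have lost reads as multimapping. In Mir411 with Mir1197 and in Mir487b with Mir539 it is the higher hairpin, where lost reads would make the pair look more equal. Neither Mir143 nor Mir145a shares such a stretch. Among the 62 pairs free of such sharing, the pair ranked 8.

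Both members had higher values in replicate 2. After TMM scaling, the difference in log2 of replicate 2 over replicate 1 was 0.19 for Mir143 (95% counting interval 0.16 to 0.22), a 1.14-fold difference. It passed the exact binomial test over 422 genes (Benjamini-Hochberg adjusted p = 3.41e-35). For Mir145a the difference was 0.17 (−0.04 to 0.39), 1.13-fold, and did not pass (adjusted p = 0.304 by the same exact test). The interval of Mir145a holds the whole interval of Mir143, and the test of the ratio given above found no detectable difference between the 2 changes. So 1 of the 2 members passed, where 21.3% of all tested genes did, and 9.48% passed with higher and 11.8% with lower values in replicate 2. The test compares these libraries, not conditions, and with counts as high as those of Mir143 small differences pass.

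Set against the spread of all genes, the Mir143 difference was moderate. Of 201 tested genes with a mean of 100 CPM or more, 29 differed by as much in either direction and 15 were as high or higher in replicate 2, Mir143 itself included; the median absolute difference was 0.08 on the log2 scale. A test whose error was widened by the median squared deviation over genes kept Mir143 (adjusted p = 2.19e-13), with 11.4% of genes passing. Widened by the mean squared deviation, it did not (adjusted p = 0.105), with 2.84% passing. Of the summed squared deviation behind that mean, 20.01% came from 2 of the 422 genes, Gm26117 and Mirlet7i.

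**Figure D3:**
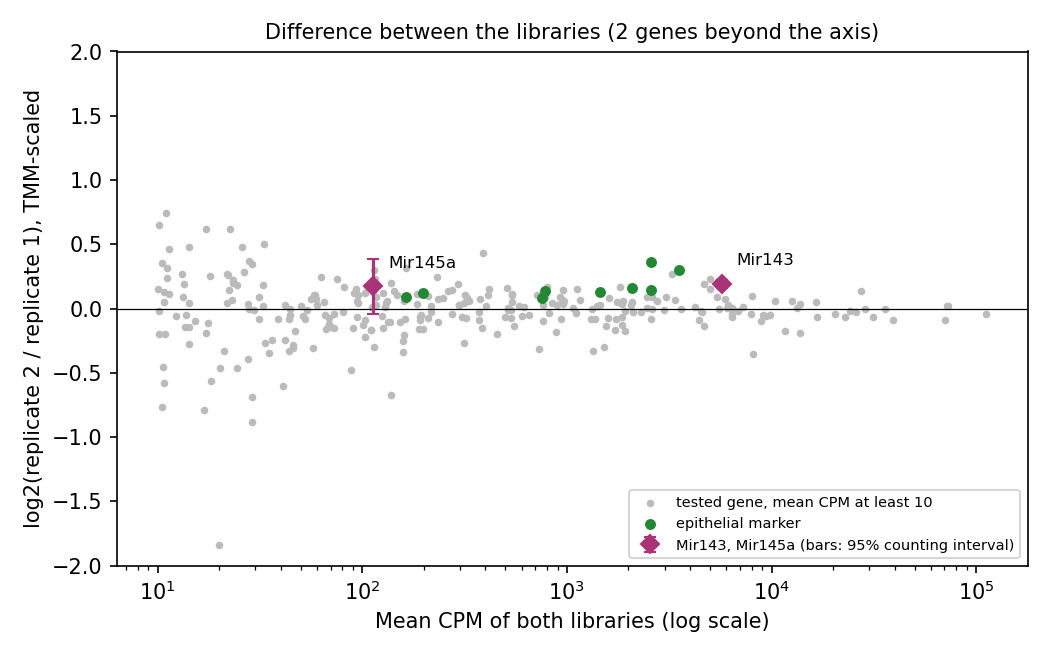
Difference between the libraries, as TMM-scaled log2 of replicate 2 over replicate 1, against the mean CPM on a log axis for tested genes with a mean of 10 CPM or more; 2 genes lie beyond the axis. Diamonds with 95% counting intervals mark Mir143 at 0.19 and Mir145a at 0.17, and the 10 epithelial markers, all above 0, are marked as larger points.

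Epithelial marker miRNAs moved in the direction of Mir143 between the libraries. All 10 had higher values in replicate 2, 7 of them past the exact test, where 9.48% of all tested genes passed higher. That share includes genes with counts too low for small differences to pass, whereas all 10 markers were detected at 100 CPM. The 10 are not independent either. Mir200b, Mir200a and Mir429 are neighbouring hairpins, as are Mir200c with Mir141, and Mir183, Mir96 and Mir182. With the mean overdispersion, 2 of the 10 passed. Their summed level was 18079 CPM in replicate 1 and 21153 CPM in replicate 2; none was at 0. Mir205, the gene nearest to Mir143, is one of them, with 5122 and 5922 CPM. Mir203 of the skin had 3159 and 3923 CPM, Mir429 2424 and 2707 CPM, Mir182 2229 and 2898 CPM, and Mir183 1944 and 2198 CPM. Cartilage and mesenchyme markers went the other way, from 58083 to 53968 CPM in sum. Of the 6, 4 were lower past the exact test, 0 higher and none at 0, where 11.8% of all tested genes passed lower. Here too the share includes genes with low counts, whereas 5 of the 6 markers were detected at 100 CPM. Mir199a-2 and Mir214 are neighbouring hairpins. With the mean overdispersion, 2 of the 6 passed. Mir214, of the Dnm3os transcript, had 40112 and 38032 CPM, Mir140 of cartilage 14609 and 12919 CPM, Mir199b 1662 and 1365 CPM, and Mir199a-2 341 and 286 CPM. Mir455, also of cartilage, had 1326 and 1333 CPM and did not pass. The part of tissue makeup in the Mir143 difference was not tested.

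The summed levels of vascular and muscle markers differed less between the libraries. Mir126a of endothelium, hosted by Egfl7, held 24254 and 24135 CPM, 4.22 times the level of Mir143 by the means. Its log2 difference of −0.02 passed the exact binomial test with TMM scaling (adjusted p = 0.0332) but not with total counts (0.620) or DESeq2 size factors (0.294). Of the skeletal and cardiac muscle list, 8 of 9 genes were in the files and summed to 601 and 590.3 CPM, under the level of Mir143 alone. Mir206 of skeletal muscle led it with 529 and 552 CPM, so the sum is mainly that of Mir206, and Mir133b had 31.2 and 23.99 CPM. Of the 5 tested genes of that list, 1, Mir206, had a higher value in replicate 2. The median log2 difference of the 5 was −0.39, with low counts for all but Mir206. Mir208b, of a cardiac myosin gene, was the 1 member that passed, with lower values in replicate 2, beside 11.8% lower of all tested genes. It had 92 and 30 counts, or 31.2 and 8.67 CPM, a log2 difference of −1.84, and fell short of the detection level in replicate 2. With the mean overdispersion, 0 of the 5 passed. Mir1a-1, Mir133a-1 and Mir133a-2 were at 0. Those last 3 share hairpin stretches with other genes, so their reads can be missing as multimapping.

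The counted levels of blood, nerve and liver markers were low beside that of Mir143. Blood markers summed to 1040 and 1215 CPM, with 6 of 7 genes in the files and none at 0. Among them Mir155 had 396 and 431 CPM, Mir451a of red blood cells 331 and 451 CPM, Mir223 of myeloid cells 259 and 289 CPM, and Mir144 36.6 and 30.6 CPM. Of the 6 tested genes of that list only Mir451a passed, with a higher value in replicate 2, beside 9.48% higher of all tested genes. Neural markers summed to 205 and 221 CPM, nearly all of it Mir137. Of the 2 tested genes of that list 0 passed, beside 21.3% of all tested genes in either direction. Mir124a-1, Mir124a-2, Mir124a-3 and Mir9-2 were at 0. Of the 6 neural genes in the files, 5 share a 20-nt stretch with another miRNA gene, those at 0 among them. Their reads can be missing as multimapping, so the neural sum can be too low. The hepatocyte miRNA Mir122 had 21.7 and 14.7 CPM and did not pass. Small RNA counts hold no messenger RNA, so smooth muscle cells could not be looked for by their contractile protein genes, and the label of the pair as smooth muscle miRNAs rests on background.

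A list of 23 miRNA genes with a published role in the state of smooth muscle, both members included, gives the wider context. Of these, 21 were in the files and 15 were detected. Mir10a, which retinoic acid induces in smooth muscle differentiation and which lies in a Hox cluster, led with 16087 and 16836 CPM. Mir100, a repressor of mTOR, followed with 7673 and 8298 CPM, and Mir143 came next. Mir21a, known both for its maturation by Smad signalling in contractile differentiation and for a part in proliferation, had 4541 and 4305 CPM. These 4 genes stood apart from the rest of the list by more than an order of magnitude. None of the 4 shares a 20-nt stretch with another miRNA gene. In the lower group 5 detected genes do, Mir24-2 among them, so their counts can be too low. Mir145a, with 106.0 and 120.5 CPM, ranked 6 in the list, behind Mir24-2 at 137 and 129 CPM.

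The other detected genes of the list had levels under that of Mir145a. Mir221 had 38.9 and 33.2 CPM and Mir222 had 20.995 and 23.4 CPM, so that by the means Mir143 stood 159 times above Mir221 and 258.3 times above Mir222. Mir31, which promotes proliferation of smooth muscle, had 91.8 and 96.6 CPM, just under Mir145a. Mir146, the gene of miR-146a, had 32.2 and 30.6 CPM. Mir204 had 70.1 and 63.3 CPM, and the collagen repressors Mir29c and Mir29a had 71.1 and 65.9 CPM and 23.7 and 29.2 CPM. Mir26a-2 and Mir26a-1, which share sequence, had 39.6 and 37.9 CPM and 12.9 and 13.9 CPM. Of the 15 tested genes of the list, 3 were higher in replicate 2 past the exact test, Mir10a, Mir100 and Mir143, and Mir21a was lower, beside 9.48% higher and 11.8% lower of all tested genes. With the mean overdispersion, 0 of the 15 passed. Their median log2 difference was 0.05, beside −7.65e-06 over all 422 genes. Among the 15 detected genes, 5 share a 20-nt stretch with another gene, so their place in the order is uncertain, as for Mir24-2.

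**Figure D4:**
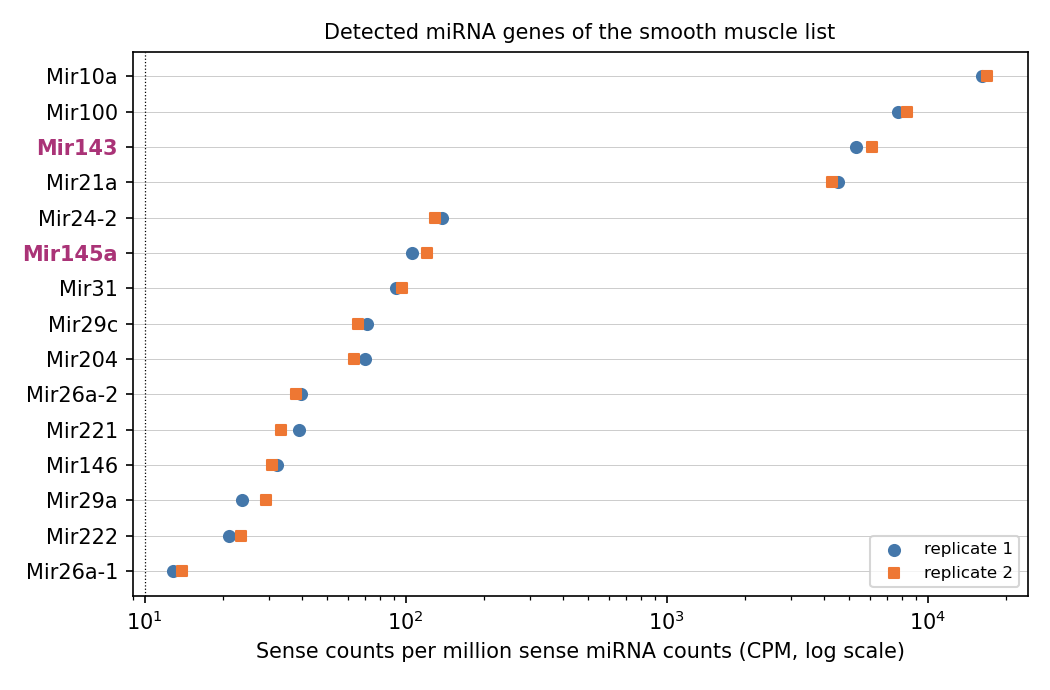
Levels of the 15 detected genes of the smooth muscle list in CPM on a log axis, with circles for replicate 1, squares for replicate 2 and a dotted line at the detection level of 10 CPM. Mir143, at 5330 and 6140 CPM, is in the upper group of 4 genes, and Mir145a, at 106.0 and 120.5 CPM, is in the lower group.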

How the data were processed

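Unnormalized read counts of miRNA genes were deposited by the authors, 1 file per library, made on assembly mm10 with GENCODE M4 per the deposited notes. The name of the aligner or counter is not given in the sources used here. A file has 3 count columns, of which the first is the sum of the others; the second held nearly all counts and was read as the sense strand. Lines for reads in no gene, 4 per file, were left out of library sizes; multimapping reads were 24.7% and 23.4% of 6661559 and 7420829 reads.

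Symbols and hairpins were taken from GENCODE M21 (mm10), and 79 listed genes had no match. TMM factors came from edgeR 4.0.16 (R 4.3.3). Genes with 10 or more counts over both libraries were tested with a two-sided exact binomial test, Benjamini-Hochberg adjusted at 0.05; log2 differences used a prior count of 0.5. Pair ratios were compared between libraries with Fisher's exact test. Folding used RNAfold 2.7.2; statistics used Python 3.11.15 with scipy 1.17.1. The tests were checked on simulated counts with counting error only. That check does not cover the wider spread seen between these libraries. No second group exists, so edgeR's quasi-likelihood test was not used.

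Members and lists were chosen with earlier results of these data known. The rule for named genes took both members, their 3 neighbours in level on each side and 5 nearest genes, the detected genes of the smooth muscle list, the 5 most abundant detected of each marker list, and the neighbouring pairs at the top and beside the Mir143 pair. Gm26117, Mirlet7i, Mir208b, Mir145b and the genes listed at 0 were named after their values were seen. Alternatives covered the count column, denominator, scaling (total counts, DESeq2 1.42.0 size factors), filter, pseudocount, overdispersion, pair distance, shared sequence and each library alone. The mature sequences are not reported here.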

Additional observations from a re-analysis of the deposited data

How the results depend on the processing

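Denominators set the levels. Scaled to all reads instead of miRNA counts, the level was 2612 for Mir143 and 51.6 for Mir145a, and without the 10 most abundant genes in the total it was 11816 and 233. With both strands counted, both levels moved by less than their SD. Each library alone gave 5330 to 6140 CPM for Mir143, 106.0 to 120.5 CPM for Mir145a, and 5.65 to 5.67 for their log2 ratio. That ratio was 5.62 with a pseudocount of 10 and 5.81 per hairpin base, an alternative chosen after seeing the data. The test of the ratio between libraries did not pass under any of its 3 alternatives. Of these, the pair distances of 2 kb and 50 kb could change only the adjustment over pairs. Mir143 kept its call between libraries in 6 of 7 alternatives, of which the filters could change only the adjustment over genes. In the test with the mean overdispersion its log2 difference of 0.19 had adjusted p = 0.105, because that test has a wider error. Over the 7 its adjusted p ran from 5.01e-40 to 0.105. Mir145a passed in 0 of 7 (adjusted p 0.226 to 1.000), with a value above 0 in all 7. Calls over all genes fell from 90 to 48 and 12 with the median and mean overdispersion. The share of other pairs with a smaller absolute log2 ratio was 81.2%. It was 80.9% within 50 kb, 84.3% within 2 kb, 83.5% with both genes at 10 CPM, 88.5% without shared stretches, 84.2% per hairpin base, and 82.2% to 83.2% in each library alone. At 100 CPM, 6 rather than 15 genes of the smooth muscle list were detected. The 313 and 417 counts of Mir145a limit what its difference between libraries can show. No paired analysis was possible because there is 1 group.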
